A study of Mus musculus with 6 samples.

Results

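The phagocyte NADPH oxidase was followed through 6 of its genes, *Cybb*, *Cyba*, *Ncf1*, *Ncf4*, *Rac1* and *Rac2*, out of 41128 genes listed for murine leukemia cells. The genes were taken by name from the known components of the enzyme, with no threshold on a measured value. All 6 were found in the table and all 6 passed the filter on low values, which kept 9522 protein-coding genes. None of the 6 passed limma's test of *Hoxa9*/*IRX3* against *Hoxa9*/MTV leukemias across all tested genes, at an adjusted p under 0.05. The mean was lower in *Hoxa9*/*IRX3* cells for 5 of the 6 genes and slightly higher for *Ncf1*. The 95% confidence interval of every one of the 6 changes lay inside a 2-fold fall and a 2-fold rise.

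The oxidase transfers electrons from NADPH to oxygen and so makes superoxide, the starting point of the oxidative burst of neutrophils and monocytes. Its membrane core is a flavocytochrome of *Cybb* (the catalytic subunit gp91phox) and *Cyba* (p22phox, which stabilizes it and docks the cytosolic subunits). In resting cells the organizer p47phox (*Ncf1*) and the phosphoinositide-binding p40phox (*Ncf4*) wait in the cytosol. On stimulation they move to the membrane together with a GTP-bound Rac GTPase, either *Rac2*, which is largely restricted to blood cells, or the widely expressed *Rac1*. Inherited loss of the subunits causes chronic granulomatous disease. The transcripts of the subunits rise as granulocytes and monocytes mature.

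The leukemias arose in irradiated congenic C57BL/6 mice that had received KIT+ bone marrow cells carrying 2 retroviruses. All 6 leukemias carried *Hoxa9*. In the *Hoxa9*/*IRX3* cohort (mice 3.2, 3.3 and 3.5) the second virus carried human *IRX3*, a homeobox gene, and in the *Hoxa9*/MTV cohort (mice 1.1, 1.2 and 1.4) it was the empty vector MTV. Both genes were driven by the viruses in drug-selected donor cells, so the cohorts model enforced expression and not an endogenous gene. RNA came from donor-derived KIT+Gr1+ cells sorted from the bone marrow of sick mice after the cells had been frozen and thawed. The recipients were young adult females when transplanted and were sampled once sick. The paper reports a later onset of leukemia in *Hoxa9*/*IRX3* than in *Hoxa9*/MTV recipients, so age and time since transplant went with cohort. Their part cannot be told apart from that of *IRX3*, and the ages of the 6 mice at sampling were not used here. One library was made per mouse, giving 3 per cohort, and nothing in the labels pairs mice across cohorts.

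Library depth was 7979246 to 9803621 reads, recovered from the steps between low values. Reads on mouse *Irx3* gave 15.1, 0.421 and 0.148 RPKM (reads on a gene divided by its length in kilobases and by library size) in *Hoxa9*/*IRX3* mice 3.2, 3.3 and 3.5, and no read on it was listed in *Hoxa9*/MTV mice, which stood at 0. *Hoxa9* was at 154 to 363 RPKM in every library. Markers of the sorted phenotype were present in part. *Kit* was at 1.63 to 3.12 RPKM and *Ly6c2*, one of the genes behind the Gr1 epitope, at 413 to 844 RPKM, whereas *Ly6g*, the other, did not pass 0.146 RPKM in *Hoxa9*/MTV mice and reached 0.682 to 1.42 RPKM in *Hoxa9*/*IRX3* mice. *Cd34*, a progenitor marker, fell from 17.4 ± 1.81 to 1.08 ± 1.22 RPKM (limma adjusted p = 0.0206). Monocyte and macrophage markers summed to 169 to 203 RPKM in *Hoxa9*/MTV mice and 31.8 to 80.6 RPKM in *Hoxa9*/*IRX3* mice, and none of the 13 was listed at 0 throughout. Neutrophil markers summed to 2670 to 3890 RPKM against 6150 to 6560 RPKM, with *Elane* alone at a mean of 794 against 2960 RPKM. Eosinophil markers summed to at most 0.424 RPKM and erythroid markers to at most 0.308 RPKM in any mouse, with *Epx*, *Ear1* and *Alas2* listed at 0 throughout. B cell markers summed to 6.26 to 7.13 RPKM against 0.276 to 2.31 RPKM, with *Ms4a1* and *Pax5* at 0 in all mice. T and NK cell markers summed to 22.7 to 33.0 RPKM against 14.9 to 482 RPKM, nearly all of it *Nkg7*, with *Cd3d* at 0. Of the dendritic cell markers *Flt3* was called lower, with a log2 change of -1.35, and of the mast cell and basophil markers *Cpa3*, with -1.40 (limma adjusted p = 0.0102 and 0.0432), both at a mean near or below 1 RPKM. The other tested mast cell and basophil markers were not called and went both ways. *Mcpt8* had a log2 change of -1.21 and *Ms4a2* one of 0.66 (limma adjusted p = 0.0621 and 0.103).

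The start regions of the oxidase genes are shown because the factors that switch these genes on in myeloid cells, such as PU.1 and interferon regulatory factors, act through them. RefSeq windows on GRCm38.p6 matched 3 of the 6 genes. Each run below is the 250 bases ahead of the RefSeq start, read 5′ to 3′ along the gene, with capitals marking GAAA followed after any 2 bases by a second GAAA, on either strand, a repeat of the kind that interferon regulatory factors bind. The windows lie at chrX:9469325-9469574 (*Cybb*, minus strand), chr8:122432941-122433190 (*Cyba*, minus strand) and chr5:134229626-134229875 (*Ncf1*, minus strand). The RefSeq start of *Cybb* lies inside the longer GENCODE span given for that gene, and so does its window.
Cybb: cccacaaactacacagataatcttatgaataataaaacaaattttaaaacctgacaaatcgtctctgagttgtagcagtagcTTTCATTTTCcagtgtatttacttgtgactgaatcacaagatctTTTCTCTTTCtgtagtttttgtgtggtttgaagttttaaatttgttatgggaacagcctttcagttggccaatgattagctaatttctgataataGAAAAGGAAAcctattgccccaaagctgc
Cyba: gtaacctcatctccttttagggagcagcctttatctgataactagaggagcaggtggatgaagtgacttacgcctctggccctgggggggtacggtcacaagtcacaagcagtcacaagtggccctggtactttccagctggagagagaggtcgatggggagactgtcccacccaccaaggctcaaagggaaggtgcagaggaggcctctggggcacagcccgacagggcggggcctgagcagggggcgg
Ncf1: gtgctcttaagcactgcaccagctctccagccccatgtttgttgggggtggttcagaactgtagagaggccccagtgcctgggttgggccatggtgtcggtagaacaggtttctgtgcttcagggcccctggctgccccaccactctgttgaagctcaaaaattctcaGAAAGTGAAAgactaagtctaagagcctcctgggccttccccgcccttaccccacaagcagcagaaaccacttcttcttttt

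The repeat was found 3 times ahead of *Cybb*, as TTTCATTTTC starting at -168 and TTTCTCTTTC at -124, both on the opposite strand, and as GAAAAGGAAA at -29 on the strand of the gene. It was found once ahead of *Ncf1*, as GAAAGTGAAA at -82, and was not matched in the window of *Cyba*. Of 32851 RefSeq windows of the same length, 2.98% held at least 1 such match. Positions count back from the base before the start, which is -1. The CCAAT box, present in 33.8% of the windows, was found ahead of *Cybb* at -56. The GC box GGGCGG, present in 32.7%, was found at 2 places ahead of *Cyba*, at -24 and -6, and once ahead of *Ncf1*, as CCGCCC at -42. These are matches of letters in a window, with no binding measured here.

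The flavocytochrome genes came first. *Cybb* (ENSMUSG00000015340; GRCm38 chromosome X, 9435252 to 9487771, minus strand) is the source of the electron-transferring subunit. Its RPKM was 10.4, 14.4 and 12.5 in *Hoxa9*/MTV mice 1.1, 1.2 and 1.4, and 8.22, 11.3 and 9.84 in *Hoxa9*/*IRX3* mice 3.2, 3.3 and 3.5. The 2 cohorts overlapped, since mouse 3.3 exceeded mouse 1.1. The means were 12.5 ± 1.99 and 9.79 ± 1.55 RPKM (SD, n = 3), a difference of -21.5% of the mean. On log2(RPKM + 0.5) the change was -0.33 with a standard error of 0.18 and a 95% confidence interval of -0.76 to 0.09 (limma adjusted p = 0.3). Because the values rest on 3824 to 6372 reads per library, counting error is small beside the spread between mice. At this standard error a log2 change of 0.84 would have been needed for a call.

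*Cyba* (ENSMUSG00000006519; chromosome 8, 122424776 to 122432930, minus strand) makes the partner without which the catalytic subunit is unstable. It was measured at 12.4, 13.1 and 12.4 RPKM in *Hoxa9*/MTV mice 1.1, 1.2 and 1.4, and at 12.5, 7.07 and 11.2 RPKM in *Hoxa9*/*IRX3* mice 3.2, 3.3 and 3.5. Mouse 3.3 stood below the other 5, while mouse 3.2 lay within the *Hoxa9*/MTV range. The means were 12.7 ± 0.389 and 10.3 ± 2.84 RPKM, and the log2 change was -0.33 (standard error 0.22, interval -0.85 to 0.19, limma adjusted p = 0.387). Without mouse 3.3 the change was -0.09. The gene lies wholly within *Gm20388* on the opposite strand, with 0 exon bases of that gene on exons of *Cyba*. Whether the counting used strand is not given in the sources used here, so reads of the pair cannot be separated.

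Next were the cytosolic subunits. *Ncf1* (ENSMUSG00000015950; chromosome 5, 134220053 to 134229625, minus strand) encodes the organizer that is phosphorylated on activation and bridges to the membrane. Its RPKM was 65.5, 74.6 and 60.9 in *Hoxa9*/MTV mice 1.1, 1.2 and 1.4, and 85.9, 46.5 and 75.0 in *Hoxa9*/*IRX3* mice 3.2, 3.3 and 3.5. *Hoxa9*/*IRX3* mice held both the highest and the lowest of the 6 values. The means were 67 ± 6.96 and 69.1 ± 20.4 RPKM, with a log2 change of 0.00 (standard error 0.25, interval -0.59 to 0.60, limma adjusted p = 0.994). Leaving out mouse 3.2 gave -0.18 and leaving out mouse 3.3 gave 0.27, so no direction can be assigned. *Gtf2ird2* overlaps 44.9% of the *Ncf1* span on the other strand, with 1748 of its own exon bases inside that span. The overlapping gene itself was at 0.379 to 0.72 RPKM, or 122 to 277 reads over its own span, against 4360 to 7290 reads on *Ncf1*.

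*Ncf4* (ENSMUSG00000071715; chromosome 15, 78244801 to 78262580, plus strand) encodes the subunit that binds phosphatidylinositol 3-phosphate on phagosomes. It was the only one of the 6 genes whose cohorts did not overlap. Its RPKM was 6.87, 6.68 and 7.17 in *Hoxa9*/MTV mice 1.1, 1.2 and 1.4, and 5.79, 5.69 and 4.85 in *Hoxa9*/*IRX3* mice 3.2, 3.3 and 3.5. The means were 6.91 ± 0.245 and 5.44 ± 0.519 RPKM, a difference of -21.2%. The log2 change was -0.32 with a standard error of 0.12 and an interval of -0.61 to -0.03. Its unadjusted limma p was 0.0344 and its adjusted p 0.17, so the gene was not called. Non-overlap was common: 33.7% of the 9522 tested genes did not overlap between the cohorts, and 21.6% did not overlap with *Hoxa9*/*IRX3* mice lower. The two-sided exact permutation p was 0.1, the smallest that 3 mice against 3 allow.

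The Rac GTPases complete the active complex. *Rac2* (ENSMUSG00000033220; chromosome 15, 78559167 to 78572783, minus strand) was at 54.4, 63.1 and 63.4 RPKM in *Hoxa9*/MTV mice 1.1, 1.2 and 1.4, and at 46.2, 46.6 and 69.5 RPKM in *Hoxa9*/*IRX3* mice 3.2, 3.3 and 3.5. Mice 3.2 and 3.3 lay below all *Hoxa9*/MTV mice and mouse 3.5 above them. The means were 60.3 ± 5.13 and 54.1 ± 13.4 RPKM, with a log2 change of -0.18 (standard error 0.20, interval -0.66 to 0.30, limma adjusted p = 0.614). Without mouse 3.5 the change was -0.37, still not called. *Rac2* and *Ncf4* lie 296.6 kb apart on chromosome 15, with 10 protein-coding genes between them.

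*Rac1* (ENSMUSG00000001847; chromosome 5, 143503634 to 143528036, minus strand), which also drives actin remodeling in most cell types, varied least among the 6 mice, with a highest value 1.26 times the lowest. Its RPKM was 14.1, 12.8 and 13 in *Hoxa9*/MTV mice 1.1, 1.2 and 1.4, and 12, 11.2 and 13.9 in *Hoxa9*/*IRX3* mice 3.2, 3.3 and 3.5. The cohorts overlapped through mouse 3.5. The means were 13.3 ± 0.707 and 12.4 ± 1.42 RPKM, and the log2 change was -0.11 (standard error 0.14, interval -0.43 to 0.22, limma adjusted p = 0.66). *Daglb* shares 9.5% of its span on the opposite strand.

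**Figure D1:**
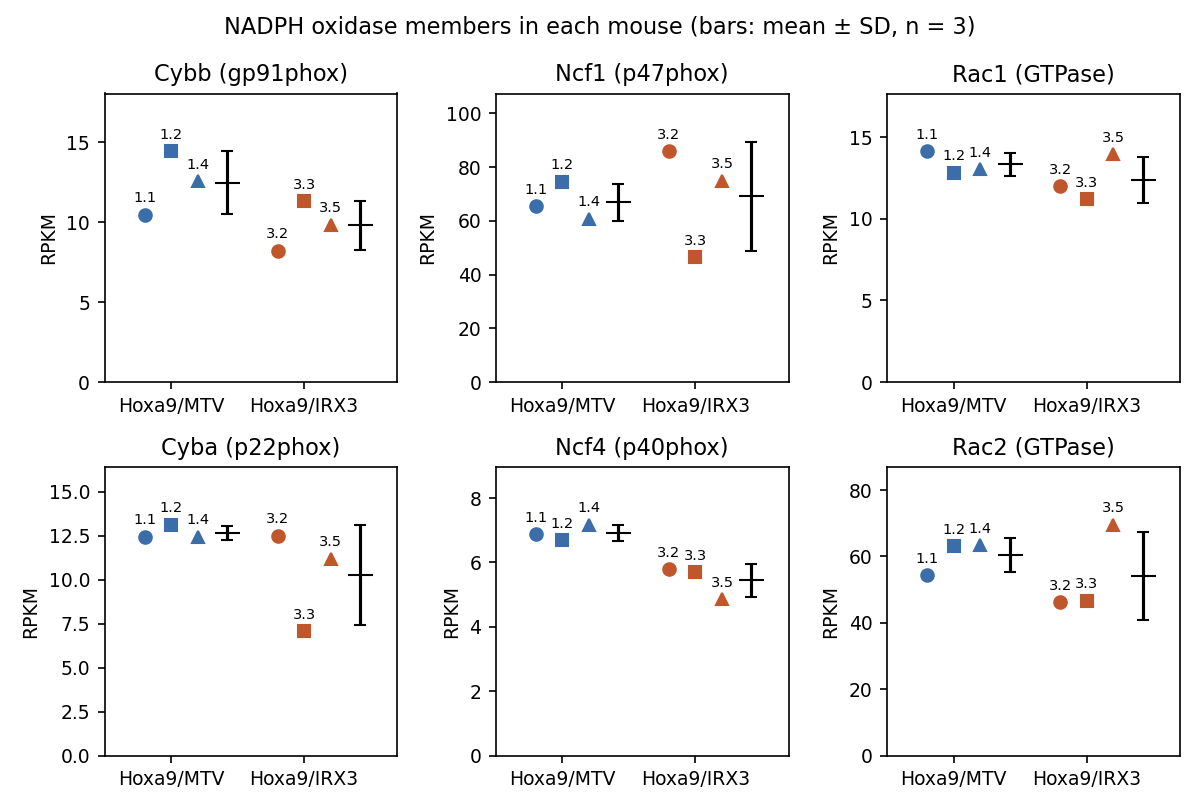
RPKM of each oxidase gene in each mouse (vertical axis, one panel per gene; labelled symbols are mice, bars the cohort mean with SD, n = 3). The cohorts overlap for 5 of the 6 genes, and for *Ncf4* all *Hoxa9*/*IRX3* mice sit below all *Hoxa9*/MTV mice, at 4.85 to 5.79 against 6.68 to 7.17 RPKM.

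Side by side, the 6 genes gave log2 changes from -0.33 to 0.00 with a median of -0.25, beside a median of -0.06 over all tested genes. At an adjusted p under 0.05, 0 of 6 were called, where limma called 5.36% of all tested genes (175 higher and 335 lower) and 3.13% with a change of at least 2-fold besides. At an unadjusted p under 0.05 the count was 1 of 6, beside 24.3% of all tested genes. By fold, the lower ends of the 95% intervals ran from 0.555 (*Cyba*) to 0.742 (*Rac1*) and the upper ends from 0.978 (*Ncf4*) to 1.52 (*Ncf1*). At the standard errors seen, a call would have needed a log2 change between 0.56 (*Ncf4*) and 1.16 (*Ncf1*). In bulk RNA of a sorted population, fewer expressing cells and less RNA per cell cannot be told apart.

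**Figure D2:**
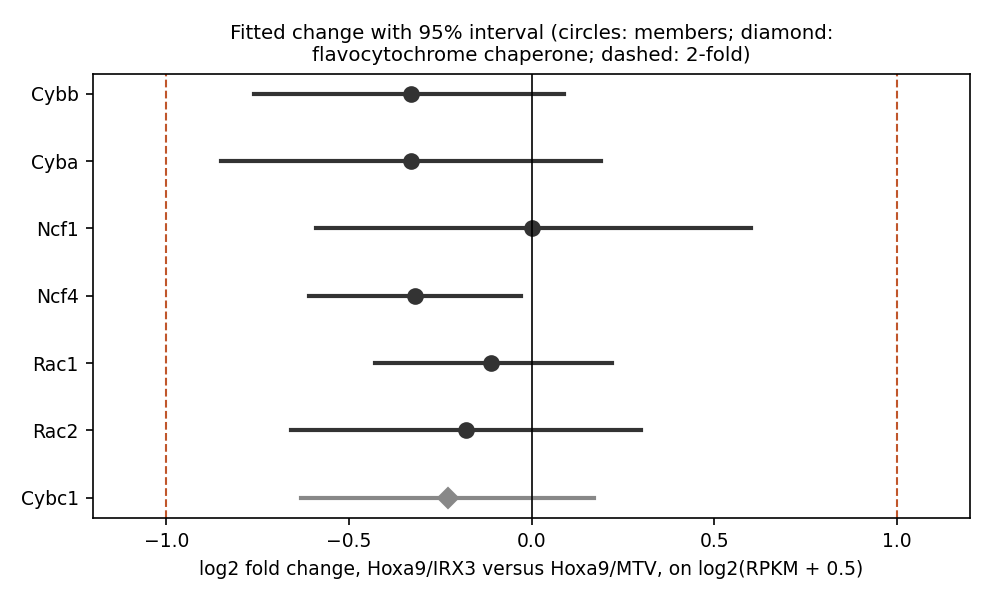
Log2 change of the 6 oxidase genes (circles) and of *Cybc1* (diamond), *Hoxa9*/*IRX3* minus *Hoxa9*/MTV, on log2(RPKM + 0.5) (symbols, limma estimate; bars, 95% confidence interval; dashed lines, 2-fold; 3 mice per cohort). All intervals lie between -0.85 and 0.60, inside the dashed lines, and only that of *Ncf4*, -0.61 to -0.03, leaves out 0.

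The deposited values divide by the whole span of a gene with its introns, which puts genes of unequal intron content on unequal scales. *Cybb*, for example, is 52520 bases long with 5808 exon bases, or 11.1%, whereas exons make up 38.3% of *Ncf1*. Levels of different genes were therefore compared as reads per kilobase of exon, with the same scaling to library reads. The spans of *Cyba*, *Rac1* and *Rac2* did not give whole reads, so their levels and ratios on this scale are approximate. On this scale the order of the mean levels in *Hoxa9*/MTV mice was *Rac2* (265 ± 22.5), *Ncf1* (175 ± 18.2), *Cybb* (113 ± 18), *Cyba* (99.4 ± 3.06), *Rac1* (72.3 ± 3.83) and *Ncf4* (60.8 ± 2.16). The order was the same in *Hoxa9*/*IRX3* mice, with *Rac2* at 238 ± 58.6, *Ncf1* at 181 ± 53.3, *Cybb* at 88.5 ± 14, *Cyba* at 80.5 ± 22.3, *Rac1* at 67.2 ± 7.69 and *Ncf4* at 47.9 ± 4.56. *Cybb* and *Cyba* did not differ beyond their spread in either cohort, nor did *Rac2* and *Ncf1* or *Cyba* and *Rac1* in *Hoxa9*/*IRX3* mice. With the length of the principal coding transcript in place of all exons, *Cyba* (139) stood level with *Cybb* (138) and *Ncf4* (83.9) above *Rac1* (78.1) in *Hoxa9*/MTV mice. In *Hoxa9*/*IRX3* mice *Rac2* and *Ncf1* were then level (243 each), *Cyba* (112) and *Cybb* (108) changed places, and *Ncf4* (66.1) stayed below *Rac1* (72.6). The order of these neighbors thus rests on the length used.

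Every one of the 6 genes was among the more abundant transcripts. *Rac2* exceeded 99.2% of tested genes per exon length in *Hoxa9*/MTV mice and 99.1% in *Hoxa9*/*IRX3* mice. *Ncf1* exceeded 98.6% and 98.8%. *Ncf4*, the lowest, still exceeded 93.4% and 91.0%.

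**Figure D3:**
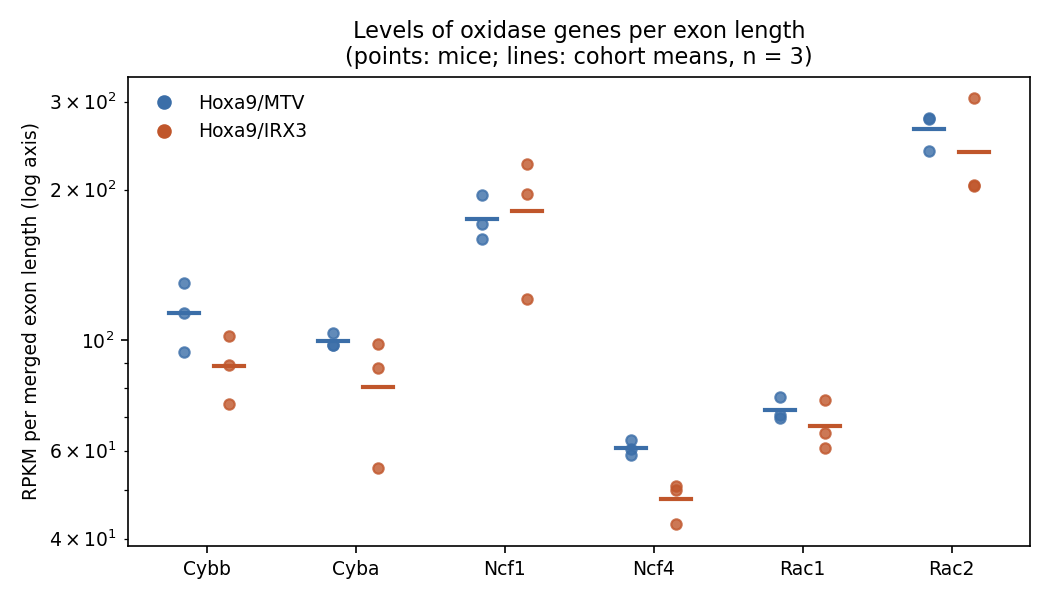
Reads per kilobase of exon, scaled to library reads, for the oxidase genes in each cohort (vertical log axis; points are mice, lines the cohort mean, n = 3 per cohort). *Rac2* and *Ncf1* lead in both cohorts, and *Ncf4* lies lowest at 60.8 and 47.9.

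Spread between mice was wider in the *Hoxa9*/*IRX3* cohort. The coefficient of variation rose from 3.07% to 27.7% for *Cyba*, from 10.4% to 29.5% for *Ncf1* and from 8.5% to 24.7% for *Rac2*, while that of *Cybb* was 16.0% and 15.8%. It was larger in *Hoxa9*/*IRX3* mice for 5 of the 6 genes. The same held for 77.5% of the 2538 tested genes that averaged 5 RPKM or more, so it is not particular to the oxidase. The mice did not keep a common rank: mouse 3.3 was lowest of 6 for *Cyba*, *Ncf1* and *Rac1*, mouse 3.2 for *Cybb* and *Rac2*, and mouse 3.5 for *Ncf4*.

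Ratios within a mouse compare subunits that work together. The ratio of *Rac2* to *Rac1* per exon length was 3.11, 3.98 and 3.94 in *Hoxa9*/MTV mice and 3.12, 3.37 and 4.03 in *Hoxa9*/*IRX3* mice, so *Rac2* was the more abundant Rac transcript in all 6. The ratio of *Cybb* to *Cyba*, whose proteins pair one to one, was 0.967, 1.27 and 1.16 against 0.757, 1.84 and 1.01. The ratio of *Ncf1* to *Ncf4* was 2.83, 3.31 and 2.52 against 4.4, 2.42 and 4.59. *Hoxa9*/*IRX3* mice spread more widely in the last 2 of these, with SDs of the log2 ratio of 0.66 and 0.52 against 0.20 in *Hoxa9*/MTV mice. Mouse 3.3 was above and mouse 3.2 below all *Hoxa9*/MTV mice for *Cybb* to *Cyba*, and mouse 3.3 was below and mice 3.2 and 3.5 above them for *Ncf1* to *Ncf4*. The mean log2 ratios differed by -0.07, 0.00 and 0.35 in that order, with two-sided exact permutation p of 1, 1 and 0.4, and 1 for all 3 after Benjamini-Hochberg adjustment over the 3 ratios.

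**Figure D4:**
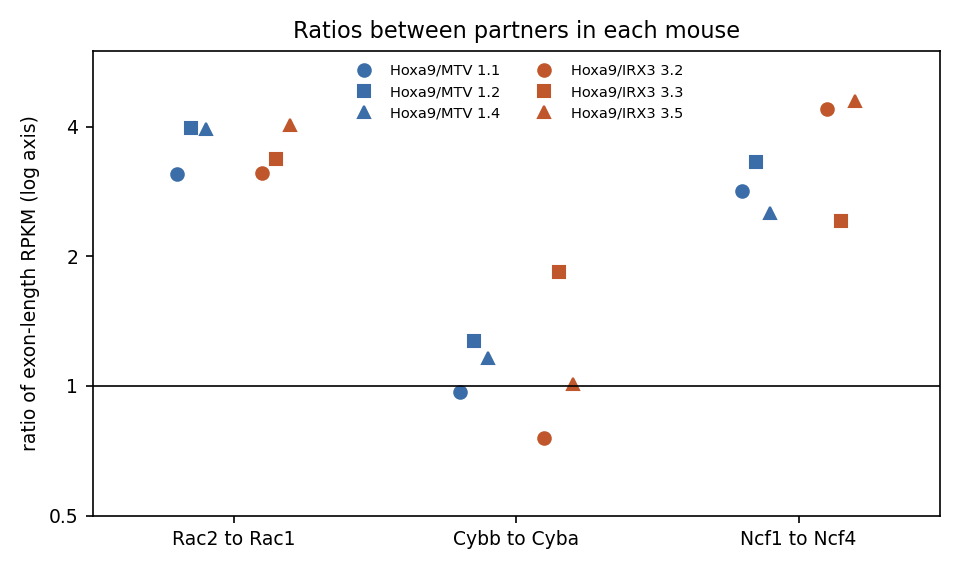
Ratio of the levels per exon length of *Rac2* to *Rac1*, *Cybb* to *Cyba* and *Ncf1* to *Ncf4* in each mouse (vertical log axis; each symbol is 1 mouse, blue for *Hoxa9*/MTV and orange for *Hoxa9*/*IRX3*; the line marks a ratio of 1). The cohorts overlap in all 3 ratios, and *Ncf1* to *Ncf4* spans 2.42 to 4.59 in *Hoxa9*/*IRX3* mice against 2.52 to 3.31 in *Hoxa9*/MTV mice.

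For each gene, the genes with the most similar profile over the 6 mice were listed among 2537 candidates, by Pearson r on log2(RPKM + 0.5) and as a description only. *Cybb* was most like *Pink1*, a mitochondrial kinase (r = 0.995), and *Thoc3* (r = 0.986). *Cyba* was most like *Sidt2* (r = 0.993) and *Gm2a* (r = 0.990), both of lysosomes. *Ncf1* was most like *Camp*, the cathelicidin of neutrophil granules (r = 0.980), and the ribosomal gene *Rpl4* (r = 0.964). *Ncf4* was most like *Ddx39b* (r = 0.994) and *Sft2d3* (r = 0.992), *Rac1* like *Pum2* (r = 0.991) and *Armcx4* (r = 0.968), and *Rac2* like *Commd3* (r = 0.996) and *Sap18* (r = 0.969). With 6 points, cohorts and libraries shared by all genes, and so many candidates, high values of r are reached readily.

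The other subunits and homologs of the oxidase held no call: 0 of 4 tested genes of 10 listed, with a median log2 change of -0.29. *Cybc1*, the chaperone of the flavocytochrome, listed under its older name BC017643, had a log2 change of -0.23 (limma adjusted p = 0.431). *Rac3*, the third Rac gene and mainly neuronal, had between 0 and 21 reads per library. *Nox1* did not exceed 0.0452 RPKM and *Nox3*, *Nox4*, *Duox1*, *Duox2* and *Noxa1* were listed at 0 in all mice, leaving *Cybb* as the one catalytic NADPH oxidase gene with appreciable reads of those listed.

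Around the complex, 9 lists of regulators, suppliers and users were examined, with 106 tested genes. In limma's test, 4 were called higher and 5 lower, or 8.49%, beside 5.36% of all tested genes. The count depended on single mice: leaving out mouse 1.1, 1.2 or 1.4 left 1 call each time, and leaving out mouse 3.2 or 3.3 gave 14. *Gfi1* was the one gene of these lists called in all 6 fits that left out 1 mouse.

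Among exchange factors, GTPase-activating proteins and GDP-dissociation inhibitors that set the nucleotide state of Rac, 11 of 15 genes were tested, with 1 higher and 1 lower and a median of -0.17. *Arhgdib*, the leukocyte inhibitor that holds Rac in the cytosol, was at 39.3 to 47.1 RPKM in *Hoxa9*/MTV mice and 69.5 to 86.7 RPKM in *Hoxa9*/*IRX3* mice. It rose by 0.85 on the log2 scale (standard error 0.15, limma adjusted p = 0.0334). *Arhgdia*, the other such inhibitor listed, was lower and not called, at 247 ± 10.4 and 182 ± 11.5 RPKM (log2 change -0.44, limma adjusted p = 0.1). *Prex1*, a Rac exchange factor of neutrophils, was named after its values were seen because its mean was below 1 RPKM. It fell from 0.896 ± 0.034 to 0.26 ± 0.171 RPKM, by 0.90 on the log2 scale (limma adjusted p = 0.0498).

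Of 17 kinases and lipases that activate the oxidase, 14 were tested and 1 was called, with a median of -0.14. This was *Prkcd*, a protein kinase C isoform that phosphorylates p47phox. Its RPKM was 8.76, 8.67 and 8.12 in *Hoxa9*/MTV mice and 5.37, 4.38 and 4.46 in *Hoxa9*/*IRX3* mice. It fell by 0.79 on the log2 scale (standard error 0.13, limma adjusted p = 0.0236). *Prkcb*, another listed isoform, went the other way and was not called (log2 change 0.67, limma adjusted p = 0.122). The isoform genes *Prkca* and *Prkcz* were not among the tested genes. Of 18 receptors that trigger the burst, 14 were tested, with 2 lower, none higher and a median of -0.19. *Fcer1g*, the signaling chain of activating Fc receptors, was at 41.3 to 43.2 RPKM in *Hoxa9*/MTV mice and 14.1 to 18.6 RPKM in *Hoxa9*/*IRX3* mice, a fall of 1.42 on the log2 scale (limma adjusted p = 0.00843). *Tlr2*, a receptor for bacterial lipoproteins, fell by 1.64 (limma adjusted p = 0.0376). *Tlr4*, of the same list, went the other way and was not called (log2 change 1.1, limma adjusted p = 0.0832). Beside the falls of *Prkcd*, *Fcer1g* and *Tlr2*, 5 of 10 tested monocyte and macrophage markers were called lower and none higher. Among them were *Irf5* with a log2 change of -2.93, *Cd68* with -2.68 and *Ms4a6c* with -4.53. The part of the marker shift in the receptor and kinase results was not tested.

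Of 14 transcription factors listed as regulators of oxidase genes, 13 were tested, with 1 higher, none lower and a median of -0.06. *Gfi1*, a zinc finger repressor of granulocyte development, was at 25.3 to 28.4 RPKM in *Hoxa9*/MTV mice and 82.4 to 94.4 RPKM in *Hoxa9*/*IRX3* mice. It rose by 1.71 on the log2 scale (standard error 0.13, limma adjusted p = 0.00298). *Spi1*, the gene of PU.1 and the central activator of *Cybb*, *Ncf1* and *Ncf4*, was at 7.55, 7.30 and 8.58 RPKM in *Hoxa9*/MTV mice and 7.94, 2.71 and 5.86 RPKM in *Hoxa9*/*IRX3* mice, with a log2 change of -0.57 (limma adjusted p = 0.344). *Irf8*, a factor that binds repeats of the kind marked ahead of *Cybb*, was at 39.6, 27.0 and 25.5 RPKM against 2.61, 63.1 and 2.98 RPKM. Mouse 3.3 thus held the highest and mice 3.2 and 3.5 the lowest *Irf8* level of the 6. Within the *Hoxa9*/*IRX3* cohort *Cybb* ranked the mice as *Irf8* did, with mouse 3.3 highest and mouse 3.2 lowest, whereas *Ncf1* was lowest in mouse 3.3. Of the *Hoxa9*/MTV mice, mouse 1.1 had the highest *Irf8* and the lowest *Cybb*. A link between *Irf8* and the oxidase genes was not tested. *Cebpe*, which drives late granulocyte genes, was at 28.4 to 32.5 RPKM in *Hoxa9*/MTV mice, at 59.5 and 109 RPKM in mice 3.2 and 3.5 and at 17.4 RPKM in mouse 3.3. *Hoxa10* was listed at 0 in all mice.

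Next were the genes that deal with the products of the oxidase. Of 24 genes of reactive oxygen defence, 22 were tested, with 2 called higher, none called lower and a median of 0.05. An unadjusted limma p under 0.05 was reached by 9 of the 22, beside 24.3% of all tested genes. Of these 9, *Sod1*, *Gpx4* and *Hmox1* were lower, with log2 changes of -1.19, -0.51 and -0.59, and the rest were higher. *Srxn1*, which repairs oxidized peroxiredoxins, went from 0.904 ± 0.138 to 3.56 ± 1.32 RPKM, a rise of 1.48 on the log2 scale (limma adjusted p = 0.0258). *Txn1*, thioredoxin, rose by 0.72 (limma adjusted p = 0.0153). Of 12 genes of NADPH supply 10 were tested and 0 were called, with 3 at an unadjusted limma p under 0.05, all of the pentose phosphate pathway and not of 1 direction. *G6pdx* and *Pgd* had log2 changes of 0.57 and 0.48 (limma adjusted p = 0.0931 and 0.0849), and *Pgls* had one of -0.46 (limma adjusted p = 0.143). In each of these 3 the mice of 1 cohort lay apart from those of the other, as for 12.2% of all tested genes with *Hoxa9*/*IRX3* mice higher and 21.6% with them lower. *Mpo*, myeloperoxidase, which turns the hydrogen peroxide into hypochlorous acid, was at 620 ± 135 and 1000 ± 172 RPKM, with a log2 change of 0.70 (limma adjusted p = 0.115). Neutrophil markers moved beside these, with 3 of 15 called higher and none lower, namely *Elane* by 1.91, *Retnlg* by 1.75 and *Cd177* by 1.42 on the log2 scale. The other 12 were not called and went both ways, from -0.99 for *Ltf* to 1.29 for *Mmp9*. The part of the neutrophil markers in the results was not tested.

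The other outlet of Rac is actin remodeling through the WAVE and WASP complexes. Of 20 genes of this arm, 17 were tested, with none higher, 1 lower and a median of -0.22. *Wipf1*, which binds and stabilizes WASP, was at 2.14, 2.16 and 2.25 RPKM in *Hoxa9*/MTV mice and 1.40, 1.01 and 1.08 RPKM in *Hoxa9*/*IRX3* mice, a fall of 0.70 on the log2 scale (standard error 0.12, limma adjusted p = 0.0289). *Wasf2*, of the WAVE complex downstream of *Rac1*, had a log2 change of -0.58 and did not pass (limma adjusted p = 0.0632).

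**Figure D5:**
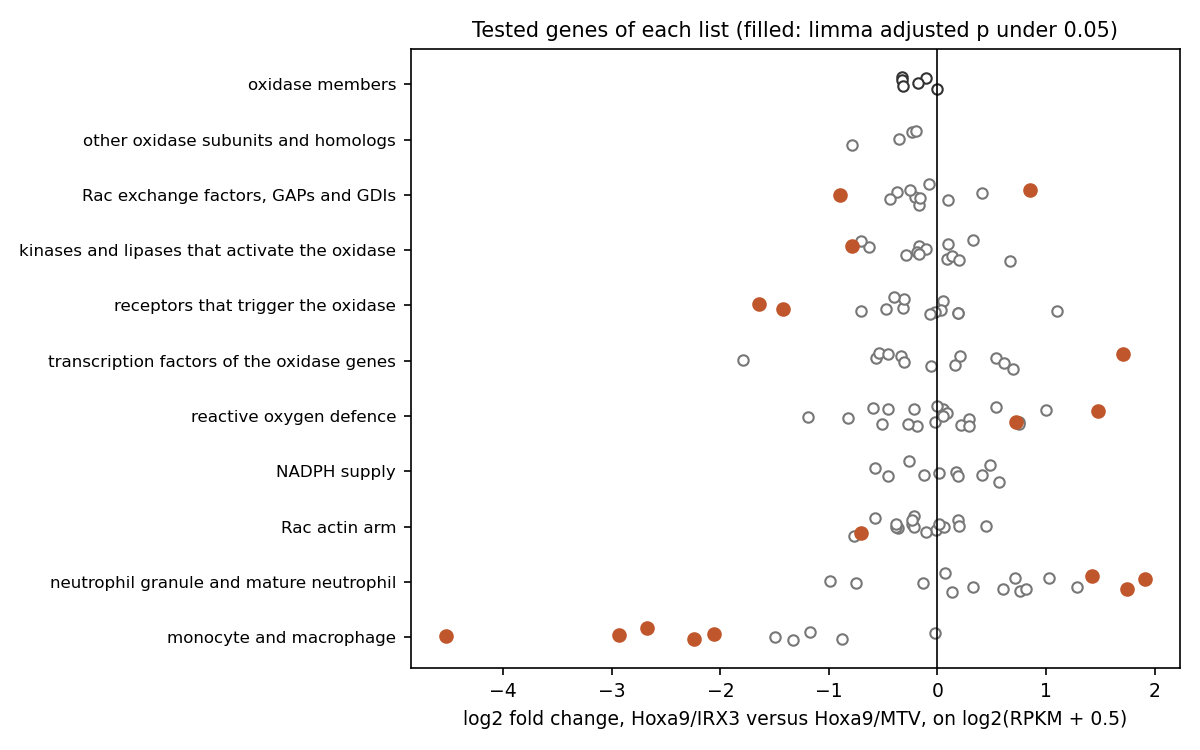
Log2 change of every tested gene (horizontal axis, *Hoxa9*/*IRX3* minus *Hoxa9*/MTV) for the 6 oxidase genes, 8 lists around the oxidase, and the neutrophil and monocyte markers, one row per list (points are genes, filled where limma's adjusted p is under 0.05). In the lists around the oxidase 4 genes are filled above 0 and 5 below, from *Tlr2* at -1.64 to *Gfi1* at 1.71, the 6 oxidase genes lie between -0.33 and 0.00 with none filled, and the monocyte markers reach -4.53.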

How the data were processed

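RNA of sorted KIT+Gr1+ leukemia cells of 6 mice was analyzed, 3 per cohort, grouped by the sample labels. The authors sequenced strand-specific polyA libraries as paired ends of 75 bases, aligned them to GRCm38 with Bowtie2 2.2.1, filtered alignments with SAMtools 0.1.19 (Phred quality of at least 20), assigned reads to Ensembl v76 genes and deposited RPKM values, which are not counts. GENCODE M21 gave gene type, span and exon length for 40254 of 41128 genes. No strand setting of the counting is given in the sources used here.

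Read numbers were recovered from the steps of low values, and were whole within 0.01 of a read in all libraries for 65.0% of tested genes, among them *Cybb*, *Ncf1* and *Ncf4* but not *Cyba*, *Rac1* and *Rac2*, whose reads and levels per exon length are approximate. The members, lists and marker genes were chosen with earlier results of these data known. Protein-coding genes over 0.5 RPKM in at least 1 mouse (9522) were tested with limma 3.58.1 in R 4.3.3 (trended eBayes) on log2(RPKM + 0.5), which shrinks changes of low genes, and p-values were adjusted over all of them by Benjamini-Hochberg. Exact permutation tests over mice were two-sided, used scipy 1.17.1, and cannot go below 0.1 with 3 mice against 3. The fit was tested on simulated data with normal noise: of 200 genes given a 4-fold difference among 9522, 174 were recovered, and 14 unaltered genes passed. The altered genes were drawn from those with higher mean values, and smaller differences were not simulated. The recovery of changes as small as those of the oxidase genes is therefore not given by it. The paper states that 3 animals per cohort were used, and the labels number each library separately.

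Genes named were the 6 members, *Rac3*, up to 4 called genes per list with a mean of at least 1 RPKM by size of change, and the 2 most similar genes per member with a mean of at least 5 RPKM. Other genes were named after their values were seen. Some genes are not reported here. Other pseudocounts, filters, scalings, variance models, sample weights, tests and gene types were tried, and each mouse was left out in turn. The transcript length was added after seeing the data.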

Additional observations from a re-analysis of the deposited data

How the results depend on the processing

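None of the 6 oxidase genes was called under any of the 11 other settings or the 6 fits that left out 1 mouse. Among the limma fits and the other tests, the lowest adjusted p reached was 0.127 for *Ncf4*, 0.187 for *Rac2*, 0.202 for *Cyba*, 0.204 for *Cybb*, 0.348 for *Ncf1* and 0.38 for *Rac1*. *Ncf1*, at 0.00, turned to -0.02 with sample weights and to -0.01, -0.06, -0.18 and -0.08 without mouse 1.1, 1.4, 3.2 or 3.5. Over the fits without 1 mouse, the log2 change ran from -0.45 to -0.22 for *Cybb*, -0.48 to -0.09 for *Cyba*, -0.18 to 0.27 for *Ncf1*, -0.36 to -0.25 for *Ncf4*, -0.19 to -0.04 for *Rac1* and -0.37 to -0.08 for *Rac2*. The difference in log2 ratio ran from -0.18 to 0.01 for *Rac2* to *Rac1*, -0.36 to 0.28 for *Cybb* to *Cyba* and 0.19 to 0.65 for *Ncf1* to *Ncf4*, with *Cybb* to *Cyba* at 0.08, 0.02, 0.28 and 0.07 without mouse 1.2, 1.4, 3.2 or 3.5.

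The count of called genes was 510, and 326 with all gene types, where more genes are tested; by an unadjusted p under 0.05 with a ratio of means over 2 it was 664. Without 1 mouse it ran from 61 to 761 over all genes and from 1 to 14 over the lists around the oxidase. The lowest counts came without mouse 1.1 (76), 1.2 (66) or 1.4 (61). The median log2 change of all tested genes was -0.06, and 0.01 and 0.02 after median-of-ratios scaling and quantile normalization. No paired analysis was possible because the cohorts share no mouse number. Depth limits *Rac3*, with at most 21 reads; for the 6 genes the spread between 3 mice is the limit.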
